A study of Mus musculus with 12 samples.

Results

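H3K4me3, the trimethylation of lysine 4 of histone H3, was compared between mouse mammary tumour organoids given SR2 and organoids given the control treatment (Ctrl), 3 days after treatment. The comparison uses 4 of the 12 libraries of the study, 2 Ctrl and 2 SR2, chosen by their labelled antibody and treatment. All 4 came from organoids labelled PyMT derived, of WT genotype and breast cancer cell type, also called tumoroids or spheroids in the labels. PyMT is the polyoma middle T oncogene, whose expression in the mammary gland gives luminal-type mammary tumours in mice. The promoter that drives PyMT, what SR2 stands for, the dose of either treatment and the age and number of the source animals are not given in the sources used here. The title of the series names modulation of the cannabinoid receptor CB2R and luminal differentiation of breast cancer. Replicate 1 of both groups is labelled batch 1 and replicate 2 batch 2, so the libraries form 2 replicate pairs. The labels do not say whether replicates were separate cultures, so p-values measure only the spread between these libraries, which may be technical. The marked regions were the peaks of the 4 libraries on chromosomes 1 to 19 and X, and peaks that shared at least 1 bp were joined into 22829 regions.

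H3K4me3 sits on the nucleosomes around the starts of genes that are transcribed or poised for transcription. It is written by the SET1 and MLL methyltransferase complexes, which share the subunits WDR5, RBBP5, ASH2L and DPY30, and it is removed by the KDM5 demethylases. CpG-rich promoters carry it by default, through CXXC-domain proteins that bind unmethylated CpG, and genes that define a cell's identity often carry unusually wide domains of it. CUT&Tag maps the mark with an antibody that brings a protein A fusion of the Tn5 transposase to it, so that adapters are inserted into nearby DNA.

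The promoters of 7 genes show the kinds of region compared below, with every CpG dinucleotide in capitals. They are those of Galnt6 (chr15:100729327-100729626, minus strand), Igfbp3 (chr11:7213874-7214173, minus strand) and Slc5a1 (chr5:33103969-33104268, plus strand), which had a peak in each Ctrl library and none after SR2. Igfbp4 (chr11:99040994-99041293, plus strand) and Cebpb (chr2:167688665-167688964, plus strand) were among the genes with the largest decrease of covered bp, Larp1 (chr11:58008814-58009113, plus strand) was among those with the largest increase, and Cfap100 (chr6:90428431-90428730, minus strand) had peaks in both SR2 libraries only. Each runs 5′ to 3′ along the gene's strand, from 250 bases before the start to 50 after it, from RefSeq (GRCm38.p6, the assembly of mm10).
Galnt6: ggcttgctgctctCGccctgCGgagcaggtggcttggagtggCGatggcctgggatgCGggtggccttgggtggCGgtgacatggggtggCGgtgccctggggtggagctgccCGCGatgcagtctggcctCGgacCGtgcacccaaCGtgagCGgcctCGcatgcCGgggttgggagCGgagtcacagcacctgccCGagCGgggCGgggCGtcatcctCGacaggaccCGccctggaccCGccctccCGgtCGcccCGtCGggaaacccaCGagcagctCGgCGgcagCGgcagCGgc
Igfbp3: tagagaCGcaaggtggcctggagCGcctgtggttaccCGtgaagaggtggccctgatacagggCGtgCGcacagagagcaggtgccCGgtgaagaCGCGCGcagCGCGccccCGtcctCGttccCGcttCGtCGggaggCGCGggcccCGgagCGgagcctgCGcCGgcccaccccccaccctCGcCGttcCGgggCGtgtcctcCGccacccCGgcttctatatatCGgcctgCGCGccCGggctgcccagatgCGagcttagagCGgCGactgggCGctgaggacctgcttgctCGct
Slc5a1: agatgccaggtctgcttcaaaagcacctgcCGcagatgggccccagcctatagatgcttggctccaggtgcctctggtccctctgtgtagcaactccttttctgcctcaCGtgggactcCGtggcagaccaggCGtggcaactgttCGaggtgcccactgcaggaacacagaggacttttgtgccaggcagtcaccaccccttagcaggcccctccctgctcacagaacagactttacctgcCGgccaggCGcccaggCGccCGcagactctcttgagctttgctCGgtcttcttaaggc
Igfbp4: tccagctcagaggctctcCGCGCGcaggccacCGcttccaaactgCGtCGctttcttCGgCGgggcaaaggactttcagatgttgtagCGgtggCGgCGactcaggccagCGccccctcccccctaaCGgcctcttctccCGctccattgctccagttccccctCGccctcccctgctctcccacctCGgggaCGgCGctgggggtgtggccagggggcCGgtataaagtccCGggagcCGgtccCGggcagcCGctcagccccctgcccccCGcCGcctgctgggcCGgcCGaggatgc
Cebpb: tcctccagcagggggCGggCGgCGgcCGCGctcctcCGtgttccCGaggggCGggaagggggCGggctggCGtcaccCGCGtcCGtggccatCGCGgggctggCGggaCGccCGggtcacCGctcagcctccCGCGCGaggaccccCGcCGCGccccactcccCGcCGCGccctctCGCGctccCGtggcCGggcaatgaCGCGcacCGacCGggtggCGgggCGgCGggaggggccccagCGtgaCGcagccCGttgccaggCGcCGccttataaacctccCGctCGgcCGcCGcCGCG
Larp1: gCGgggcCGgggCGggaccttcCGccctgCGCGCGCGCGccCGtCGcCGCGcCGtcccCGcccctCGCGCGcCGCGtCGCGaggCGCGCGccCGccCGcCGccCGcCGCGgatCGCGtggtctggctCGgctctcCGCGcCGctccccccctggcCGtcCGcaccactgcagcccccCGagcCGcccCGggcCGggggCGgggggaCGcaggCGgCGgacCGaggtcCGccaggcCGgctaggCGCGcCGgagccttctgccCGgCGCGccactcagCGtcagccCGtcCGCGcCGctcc
Cfap100: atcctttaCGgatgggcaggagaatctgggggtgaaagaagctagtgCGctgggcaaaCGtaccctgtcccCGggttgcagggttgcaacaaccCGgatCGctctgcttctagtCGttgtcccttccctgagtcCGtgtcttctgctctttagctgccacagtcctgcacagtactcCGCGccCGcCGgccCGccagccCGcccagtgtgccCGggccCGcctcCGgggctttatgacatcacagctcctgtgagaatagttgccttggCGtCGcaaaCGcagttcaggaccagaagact

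These 7 windows held from 10 CpG in Slc5a1 to 61 in Larp1, with 31 in Galnt6, 37 in Igfbp3, 27 in Igfbp4, 50 in Cebpb and 20 in Cfap100. The 3 control-only promoters thus held from 10 to 37 CpG. Over the 9132 genes (81.6% of 11185) that were marked in all 4 libraries and had a listed promoter, the median was 23 CpG, against 13 over all 21044 listed promoters. The motif GGGCGG, searched on both strands, stood in 71.8% of the promoters marked in all 4 libraries and in 46.7% of all listed promoters. Of those printed, Galnt6, Cebpb, Larp1 and Cfap100 hold it. The motif TATAAA, searched the same way, stood in 5.68% of the promoters marked in all 4 libraries and in 12.7% of all, and of those printed in Igfbp4 and Cebpb. A comparison of the control-only promoters as a class is void, because 129 of the 184 genes (70.1%) had a listed promoter, under the 80% that such a comparison needs.

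The 4 libraries differed in the strength of their peaks, and SR2 replicate 1 stood apart. The Ctrl libraries held 18383 and 16442 peaks and the SR2 libraries 14812 and 15189 (replicates 1 and 2). Over the 11968 regions marked in all 4 libraries, the median summit pileup, the number of fragments stacked at a peak's summit, was 113 and 84 in Ctrl, 43 in SR2 replicate 1 and 68 in SR2 replicate 2. The background pileup, the lowest local background over a library's peaks, went the other way, at 1.05 and 1.02 in Ctrl and 1.16 and 1.10 in SR2. The median summit was 108 and 82.0 times this lowest background in Ctrl, 37.1 times in SR2 replicate 1 and 61.7 times in SR2 replicate 2. The deposited fold enrichment, which uses each peak's own local background, differed less. Its median over the same regions was 9.62 and 9.39 in Ctrl, 7.67 in SR2 replicate 1 and 8.73 in SR2 replicate 2. Because of SR2 replicate 1, differences over all regions are given by pair, and most single genes with their value in every library. The part of peak strength in those results was not tested.

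**Figure D1:**
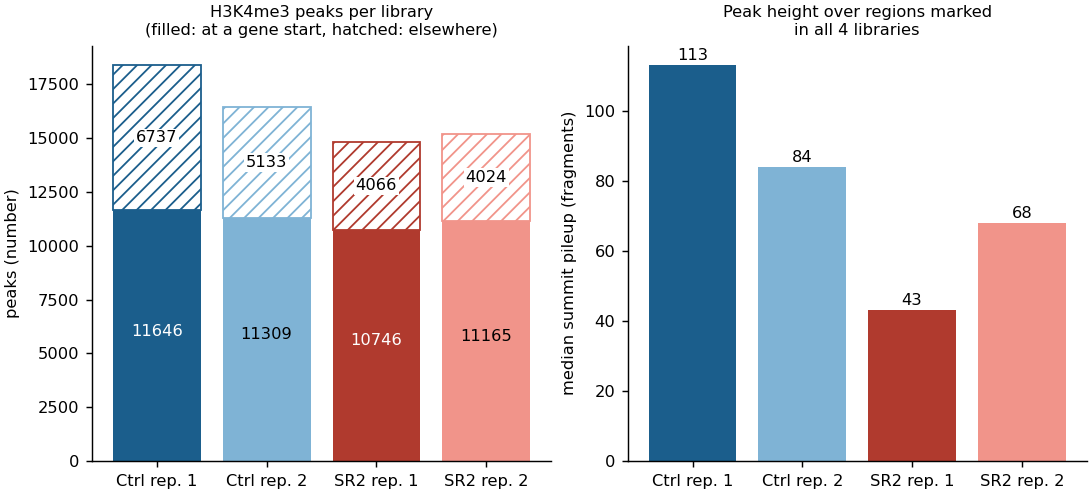
Left, H3K4me3 peaks in each library (bars, number), split into peaks in regions at a protein-coding gene start (filled) and elsewhere (hatched). Right, median summit pileup in fragments over the 11968 regions marked in all 4 libraries. Peaks at gene starts number 10746 to 11646 in the 4 libraries, and SR2 replicate 1 has the lowest pileup, 43.

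Fewer peaks were found after SR2, and the difference lay mostly away from gene starts. Peaks in regions at a protein-coding gene start (within 1 kb of it) numbered 11646 and 11309 in Ctrl and 10746 and 11165 in SR2. The ratio of group means was 0.955, with 0.923 in pair 1 and 0.987 in pair 2. Peaks elsewhere numbered 6737 and 5133 in Ctrl and 4066 and 4024 in SR2, a ratio of 0.682 (0.604 in pair 1 and 0.784 in pair 2). Both SR2 libraries lay below both Ctrl libraries in each class, and the Ctrl libraries themselves differed by a ratio of 0.762 away from gene starts. For all peaks the ratio was 0.861 (0.806 and 0.924 in the pairs), and for the length covered by peaks, 18.6 and 16.2 Mb in Ctrl and 13.3 and 15.0 Mb in SR2, it was 0.814 (0.717 and 0.925). Each of these 4 ratios had an exact two-sided permutation p of 0.333, the smallest that 2 libraries against 2 can give.

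At gene starts most regions were marked in both libraries of a pair. In pair 1, 10.0% of the gene-start regions of Ctrl had no peak in SR2, and in pair 2 3.65%. In the other direction, 0.723% of the SR2 regions had no peak in Ctrl in pair 1 and 2.19% in pair 2. Between the Ctrl replicates, 5.27% of those of replicate 1 had none in replicate 2 and 1.39% the other way. Between the SR2 replicates it was 1.72% of those of replicate 1 and 5.88% of those of replicate 2. The share lost in pair 1 lay above all 4 of these replicate values, and the share lost in pair 2 lay between the 2 directions of either replicate comparison. Away from gene starts, 69.7% of the Ctrl regions had no peak in SR2 in pair 1 and 46.7% in pair 2. There the Ctrl replicates gave 46.0% and 28.3%, and the SR2 replicates 54.8% and 54.5%, so that pair 2 lay above the former and below the latter.

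Peak height differed by pair over nearly all regions. Over the 11968 regions marked in all 4 libraries, the median log2 ratio of summit pileup, SR2 over Ctrl, was -0.83, with -1.35 in pair 1 and -0.30 in pair 2. Replicate 2 of Ctrl lay -0.44 from replicate 1 on the same scale, and replicate 2 of SR2 lay 0.61 from its replicate 1. The difference in pair 2 was smaller than both of these differences between replicates. Without SR2 replicate 1 the median was -0.52, and without SR2 replicate 2 -1.13. At gene-start regions the values were nearly the same, -1.37 in pair 1 and -0.30 in pair 2, and by chromosome the median ranged from -1.37 to -1.30 in pair 1. The exact two-sided permutation p was 0.333.

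Breadth, the number of bp of a region covered by a library's peaks, differed less than height. The median over shared regions was 1223 and 1135 bp in Ctrl and 993 and 1091.5 bp in SR2. The median log2 ratio was -0.16, with -0.26 in pair 1 and -0.05 in pair 2, against -0.07 between the Ctrl replicates and 0.11 between the SR2 replicates (exact permutation p 0.333). Without SR2 replicate 1 it was -0.09. Regions were also put into 5 groups by Ctrl pileup, which is itself the denominator of the pileup ratio, and every region had to pass the peak threshold in all 4 libraries. The grouping thus fixes part of the pileup values by group, and no trend is read from them. In the lowest group (median pileup 28.6), breadth differed by -0.57 in pair 1 and -0.09 in pair 2, and in the highest (189) by -0.15 and -0.03. Pileup differed by -1 and -0.17 in the lowest group and by -1.44 and -0.34 in the highest.

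**Figure D2:**
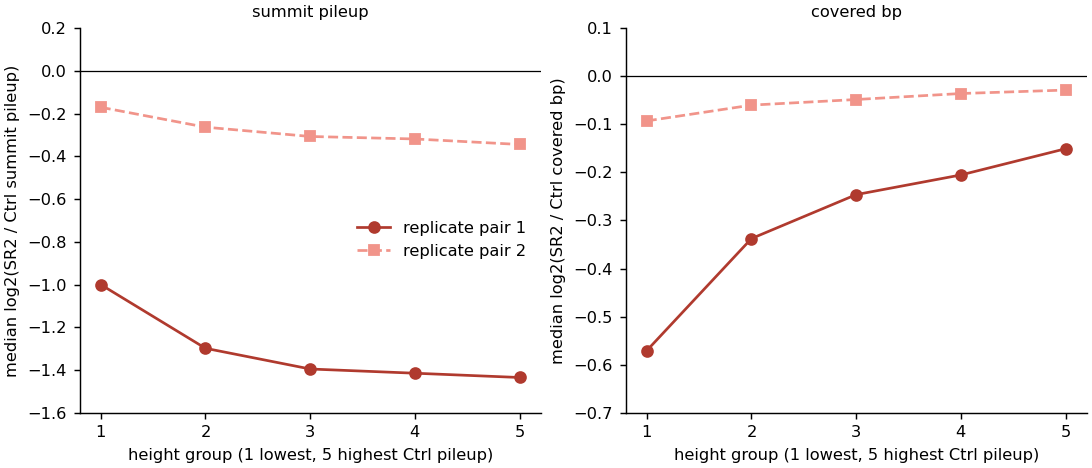
Median log2 ratio of SR2 over Ctrl for summit pileup (left) and covered bp (right) in 5 groups of shared regions ordered by their Ctrl pileup, for replicate pair 1 (circles, solid) and pair 2 (squares, dashed). In the lowest group the values in pair 1 are -0.57 for breadth and -1 for pileup, and in the highest -0.15 and -1.44. Ctrl pileup both orders the groups and is the denominator of the left panel.

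The edges of the marked domains lay closer to the start on both sides in pair 1 and hardly so in pair 2. At 6508 gene starts where a single strand is annotated and the domain of every library spans the start, the domain reached a median of 389 and 356 bp upstream in Ctrl and 312 and 343 bp in SR2. Downstream, into the gene, it reached 829 and 784 bp in Ctrl and 699 and 754 bp in SR2. The median difference in pair 1 was -57 bp upstream and -106 bp downstream. In pair 2 it was -5 and -12 bp, which is less than the -13 and -26 bp between the Ctrl replicates. A wider set of 7205 gene starts marked in all 4 libraries did not require the domain to span the start. Of these, 91.9% (SR2 replicate 1) to 96.9% (Ctrl replicate 1) were covered at the start itself. At 500 bp into the gene 88.3% and 83.3% had a peak in Ctrl, and 74.5% and 81.2% in SR2.

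**Figure D3:**
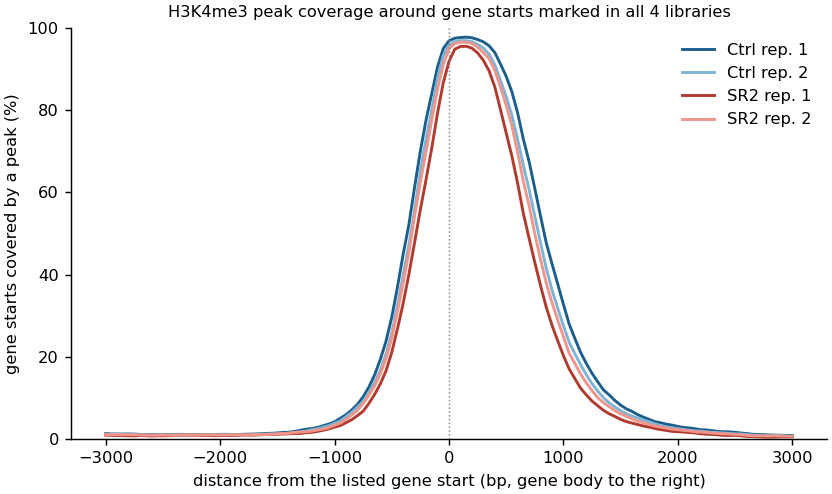
Share of 7205 gene starts (%) covered by a peak at each distance (bp) from the listed start, with the gene body to the right, 1 line per library. The 4 curves have the same shape and are centred inside the gene, and SR2 replicate 1 lies lowest, at 74.5% against 88.3% in Ctrl replicate 1 at 500 bp.

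No region passed the test of breadth or of rank. With limma, 0 of 15592 regions marked in at least 2 libraries had a Benjamini-Hochberg adjusted p under 0.05 for breadth (0%, lowest adjusted p 0.234). At an unadjusted p under 0.05, 1629 regions (10.4%) were narrower and 319 (2.05%) wider in SR2. Fold changes from this test are on the scale of log2(covered bp + 200) after centring each library on its median over shared regions, which understates changes of short regions. Of 12018 genes with a tested region, 567 (4.72%) had a narrower and 294 (2.45%) a wider region at that unadjusted level. Leaving out SR2 replicate 2, so that both Ctrl libraries are set against SR2 replicate 1 alone, gave 1253 narrower and 38 wider regions after adjustment (lowest adjusted p 0.00112). Leaving out SR2 replicate 1 gave 0 (lowest adjusted p 0.0934). Those 1253 narrower regions rest on SR2 replicate 1 alone.

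Narrowing at gene starts was common in direction in pair 1, less so in pair 2, and small in size. Of the 10277 shared regions at gene starts, 91.5% had fewer covered bp in SR2 in pair 1 and 61.8% in pair 2. Of 10006 regions that were given to a gene and marked in all 4 libraries, 5697 (56.9%) had fewer covered bp in SR2 in both pairs and 331 (3.31%) more in both. Whether these shares exceed what the shares of the single pairs would give without agreement between pairs was not tested. A difference of over 1.5-fold was reached by 1600 regions in pair 1 and 279 in pair 2 downward, of which 146 did so in both. Upward it was reached by 7 regions in pair 1 and 115 in pair 2, and by 0 in both.

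**Figure D4:**
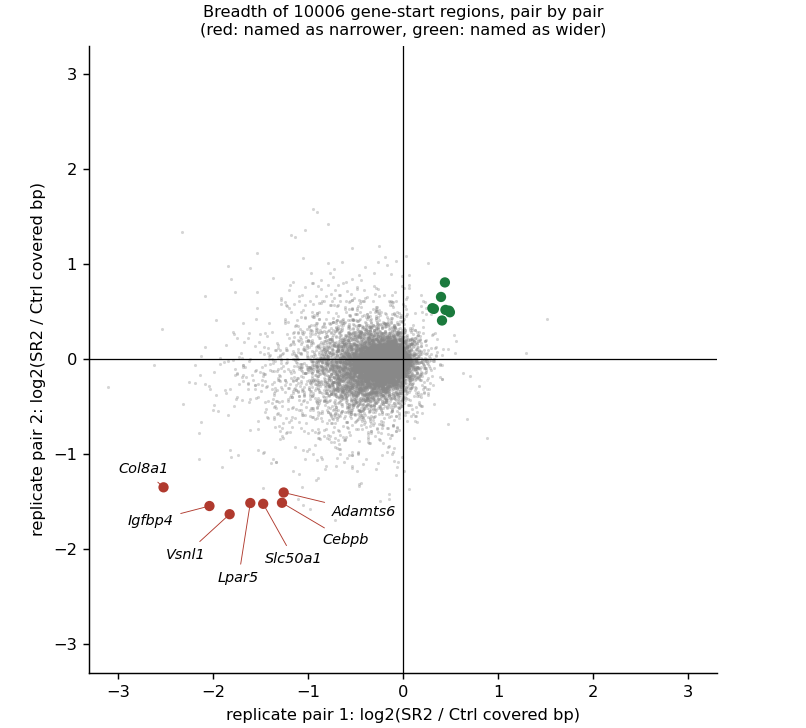
Each point is 1 of 10006 gene-start regions marked in all 4 libraries, at its log2 ratio of covered bp (SR2 over Ctrl) in replicate pair 1 (x axis) and pair 2 (y axis). The cloud lies to the left of 0 in pair 1 and around 0 in pair 2, and the named narrower genes (red, labelled) lie at or below -1.26 in pair 1 and at or below -1.35 in pair 2. Green points are the named wider genes.

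The genes with the largest narrowing in both pairs, 7 of which are described, ranked low by peak strength. Their Ctrl summit pileups ran from 16 (Adamts6) to 103 (Cebpb). Their Ctrl and SR2 values of covered bp did not overlap, which the choice by the largest narrowing favours. Values are covered bp in Ctrl replicates 1 and 2 and then SR2 replicates 1 and 2. Igfbp4, an insulin-like growth factor binding protein gene (mm10 chromosome 11, 99040630 to 99042240), had 1339, 1434, 326 and 491 bp, a limma log2 change of -1.24 (SE 0.16, adjusted p 0.234). Cebpb, which encodes the transcription factor C/EBP beta needed for mammary gland development (chromosome 2, 167688324 to 167690175), had 1766, 1392, 730 and 488 bp, a log2 change of -0.99 (SE 0.21, limma adjusted p 0.234). Vsnl1, a neuronal calcium sensor gene, had 1492, 2133, 421 and 688 bp. In each of these 3 genes the narrower Ctrl library was more than 1.5-fold wider than the wider SR2 library, although none passed the adjusted test.

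Lpar5, a receptor for lysophosphatidic acid, had 1515, 1920, 497 and 672 bp. Col8a1, a short-chain collagen gene, had 1608, 1274, 280 and 500 bp. Slc50a1, a sugar transporter gene, had 752, 1052, 271 and 366 bp, and Adamts6, a secreted metalloprotease gene, had 896, 942, 375 and 356 bp. Adamts6 has no listed start, so a region within 1 kb of either gene end was taken. Their limma log2 changes ran from -0.83 (Adamts6) to -1.34 (Col8a1), with adjusted p from 0.234 to 0.241.

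The 8 regions with the largest widening differed less. Larp1, an RNA-binding protein that controls the translation of ribosomal protein messages (chromosome 11, 58008501 to 58010691), had 1479, 1524, 2016 and 2184 bp, a log2 change of 0.59 (SE 0.07, limma adjusted p 0.234). Sord, sorbitol dehydrogenase, had 735, 668, 970 and 1052 bp. Kctd12, an auxiliary subunit of GABA-B receptors, had 992, 967, 1229 and 1403 bp. In these 3 genes both SR2 libraries lay above both Ctrl libraries, which the choice by the largest widening favours. The region between the starts of Spcs2, a signal peptidase subunit, and Xrra1 had 845, 916, 1183 and 1305 bp and is counted once.

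The other 4 were Zik1, a zinc finger gene, with 480, 507, 676 and 714 bp, Dnajb14, a chaperone of the endoplasmic reticulum, with 478, 390, 649 and 683 bp, Mansc1 with 498, 550, 624 and 794 bp, and Shisa2. Shisa2, which retains Wnt and FGF receptors in the endoplasmic reticulum, had 1962, 1097, 2608 and 1455 bp, so its groups overlapped and the direction is shared only within pairs. Mansc1 has no listed start. Over the 8 regions the limma adjusted p ran from 0.234 to 0.631.

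**Figure D5:**
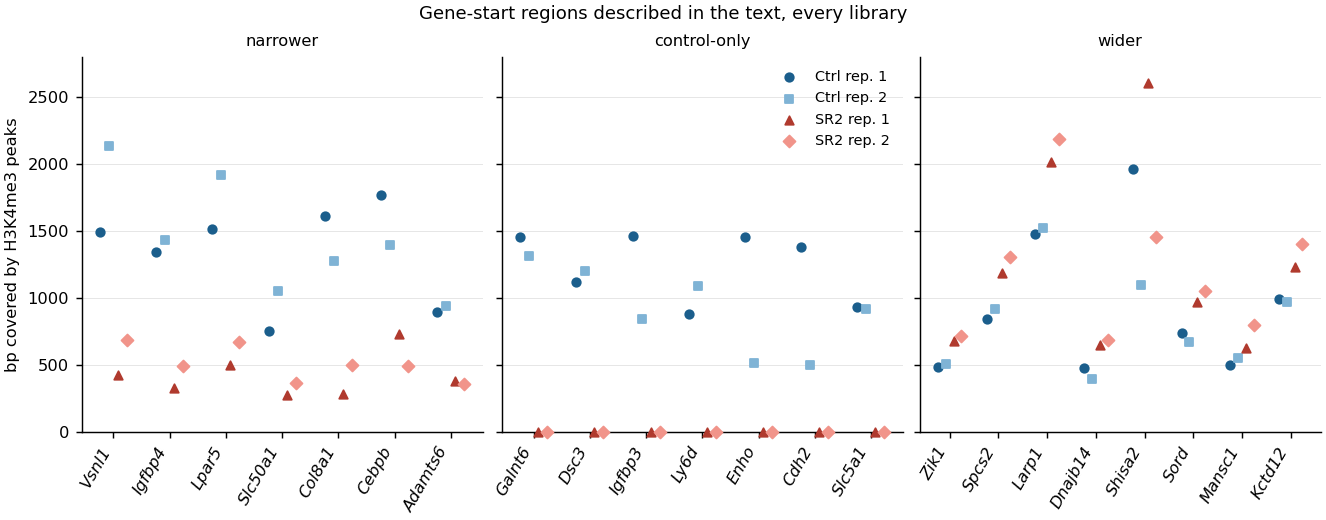
Covered bp (y axis) in each library for 7 of the gene-start regions with the largest narrowing, 7 of the control-only regions with the most Ctrl bp and the 8 with the largest widening (x axis, genes), with 1 point per library. Circles and squares are Ctrl replicates 1 and 2, triangles and diamonds SR2 replicates 1 and 2. Groups overlap only at Shisa2 (1962 and 1097 bp in Ctrl, 2608 and 1455 bp in SR2). The genes were chosen by these values.

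Control-only regions, those with a peak in each Ctrl library and none in SR2, were short and weak. They numbered 1147, or 7.85% of the 14613 regions marked in both Ctrl libraries, and 33 regions were SR2-only, or 0.272% of the 12138 marked in both SR2 libraries. In the Ctrl lists the control-only regions had a median of 480 and 391 bp and a median summit pileup of 13 and 12, and 0 of them ranked above the median of either list by the authors' -log10 q. Only 18.6% lay at a gene start, where 85.9% of the shared regions lay, and 44.1% lay inside a gene and 37.3% between genes. A further 1265 regions were absent in SR2 replicate 1 alone and 233 in SR2 replicate 2 alone. The count was 1380 without SR2 replicate 1, 2412 without SR2 replicate 2, 2506 without Ctrl replicate 1 and 4136 without Ctrl replicate 2. Leaving out a library drops a condition, so these counts could only rise. With the same number of peaks (14812) taken from each list the control-only count was 451, with 75 SR2-only regions.

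At gene starts, 184 genes were control-only, 1.56% of the 11814 marked in both Ctrl libraries, and 2 were SR2-only. Without SR2 replicate 2 the control-only count was 563 and without Ctrl replicate 2 it was 523, where it could only rise. With equal list lengths it was 83 against 15 SR2-only. Galnt6, an enzyme that starts mucin-type O-glycans (chromosome 15, 100727993 to 100729499), had the most, 1455 and 1314 bp in Ctrl with summit pileups of 18 and 16. Igfbp3, another insulin-like growth factor binding protein gene (chromosome 11, 7212721 to 7214184), had 1464 and 839 bp. Slc5a1, the sodium-dependent glucose transporter SGLT1, had 935 and 918 bp. These 3 promoters are printed above, and none of the 3 genes had a peak in either SR2 library.

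Dsc3, a desmosomal cadherin of stratified epithelium, had 1117 and 1203 bp, and Ly6d, a surface protein of epithelial and B lineage cells, had 881 and 1088 bp. Cdh2, N-cadherin of mesenchymal and neural cells, had 1381 and 498 bp, so that its Ctrl libraries themselves differed by over 1.5-fold. Enho, which encodes the secreted peptide adropin, had 1457 and 510 bp. These 4 genes have no listed start and were placed by a gene end. All 7 control-only genes described had summit pileups of 11 to 23 in Ctrl, far below the median of 113 and 84 over shared regions. Among genes without clone-type names Cfap100, a protein of the ciliary axoneme, was the single SR2-only gene, with 379 and 398 bp, summit pileups of 13 and 8, and no peak in Ctrl.

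The order of regions by strength was mostly kept. Each region marked in all 4 libraries was given its percentile when regions are ranked within a library by -log10 q, which compares lists of the same length. Spearman's rho over 11968 regions was 0.962 between the Ctrl replicates, 0.925 between the SR2 replicates, 0.931 in pair 1 and 0.951 in pair 2. The 3 lowest of the 6 values all involved SR2 replicate 1. With limma, 0 regions (0%) passed an adjusted p of 0.05 for rank (lowest adjusted p 0.812). At an unadjusted p under 0.05, 355 (2.97%) were higher and 379 (3.17%) lower in SR2. In both pairs 318 regions were higher and 344 lower by over 10 points, and 453 differed by over 10 points in opposite directions.

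Bahd1, a protein that helps to form heterochromatin (chromosome 2, 118901101 to 118903019), had the largest increase of rank over both pairs, with percentiles of 38.1 and 34.7 in Ctrl and 73.2 and 88.1 in SR2. Its summit pileup was 137 and 98 in Ctrl and 78 and 142 in SR2, and its breadth log2 change was 0.08 (SE 0.06, limma adjusted p 0.629). Kctd6, a substrate adaptor of cullin ubiquitin ligases, went from 25.1 and 17.7 to 66.2 and 48.5. Usp33, a deubiquitinase, went from 37.1 and 38.4 to 83.9 and 68.4, and Mprip, which targets myosin phosphatase, from 39.1 and 31.1 to 68.3 and 81.0. Ogfrl1 went from 33.0 and 33.5 to 82.6 and 62.0. In these 5 genes SR2 and Ctrl percentiles did not overlap, which their choice by the change of percentile favours. The limma adjusted p of each was 0.812. With normal scores in place of percentiles Bahd1 passed (limma adjusted p 0.0274), and over its 9 alternatives the adjusted p ran up to 1.

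Serpinb5, the gene of maspin, a serpin of normal mammary epithelium (chromosome 1, 106860940 to 106862509), had the largest decrease, with percentiles of 66.6 and 65.4 in Ctrl and 32.9 and 29.5 in SR2. Its summit pileup was 135 and 105 in Ctrl and 30 and 49 in SR2, while its breadth log2 change was -0.01 (SE 0.21, limma adjusted p 0.991). Zpr1 went from 72.6 and 73.6 to 45.3 and 37.3, Cc2d1a from 74.9 and 78.7 to 46.7 and 53.0, and Zscan25, a zinc finger gene, from 68.4 and 61.8 to 35.5 and 36.2. Cers6, a ceramide synthase, went from 54.1 and 59.9 to 30.7 and 34.0. Their limma adjusted p was 0.812. The percentiles of these genes separate the groups, which their choice by the change of percentile favours. Ranking by covered bp instead of -log10 q reverses Zpr1, Cc2d1a and Cers6 among them, and Usp33 and Mprip among those with higher percentiles.

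Genes of epithelial identity and signalling were followed in 27 lists of 387 genes, of which 322 had a region and 294 were marked in all 4 libraries. At an unadjusted limma p under 0.05, 26 of the 319 tested were narrower (against 4.72% of all genes) and 7 wider (against 2.45%), and none passed after adjustment (lowest adjusted p 0.234). The median log2 change of breadth was -0.02 over the list genes and 0.02 over all genes. Control-only list genes numbered 10, against 1.56% of all genes marked in both Ctrl libraries, and 0 were SR2-only. The control-only genes were Lgr5, Cdh2, Fn1, Tnc, Sox2, Heyl, Galnt6, Cxcl12, Cd68 and Tubb3. These 10 are counted among the narrower genes. A listed start placed 223 of the 322, and the others, among them Sqle, Pkp3, Kdm6b, Fn1, Lgr5, Heyl, Cdh2, Ovol1, Sox10, Wnt7b, Spi1 and Lpl, were placed by a gene end, which may not be the start. Their values are given as covered bp in Ctrl replicates 1 and 2 and then SR2 replicates 1 and 2. SR2 values below Ctrl values are not particular to these genes. Of all 10006 gene-start regions marked in all 4 libraries, 56.9% were narrower in SR2 in both pairs. The share with both SR2 values below both Ctrl values was not counted. By pair, the median log2 ratio over a list's genes marked in all 4 libraries, with no centring, is set against -0.23 in pair 1 and -0.04 in pair 2 over all genes.

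The labelled breast cancer epithelium was recognisable by its mark. All 8 luminal epithelial markers (Krt8, Krt18, Krt19, Epcam, Cdh1, Elf3, Cldn3 and Cldn4) were marked in all 4 libraries, with a summed breadth of 13396 and 11778 bp in Ctrl and 11004 and 11366 bp in SR2. Krt8, a keratin of simple epithelium, had 1628, 1629, 1547 and 1587 bp (Ctrl and then SR2), and Krt18, its partner, had 1646, 1276, 1417 and 857 bp. Of the 5 basal markers, Krt5, Krt14 and Krt17 were marked in all 4, and Trp63 and Acta2 had no region at a start. Krt5 had 1763, 2103, 1015 and 1694 bp, and Krt14 2418, 2263, 1572 and 2300 bp. Their summed breadth was 6255 and 6062 bp in Ctrl and 3701 and 5684 bp in SR2, so the low value was that of SR2 replicate 1.

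Of 50 genes in the lists of other cell types 16 had a region and 10 were marked in all 4 libraries. Cxcl12, Cd68 and Tubb3 (3 genes) were control-only, against 1.56% of all genes marked in both Ctrl libraries. The summed breadth over these lists was 15452 and 12177 bp in Ctrl and 8645 and 9734 bp in SR2. Both SR2 sums lay below both Ctrl sums, and the part of such cells in other results was not tested. This is not particular to these lists. The luminal and basal sums above and the length covered in whole libraries were also lower in both SR2 libraries than in both Ctrl libraries. The part of peak strength in these sums was not tested. Of the 7 defining fibroblast markers Col1a1 was marked, and Col1a2, Col3a1, Pdgfra, Pdgfrb, Dcn and Lum had no region. Col5a1 (1410, 926, 841 and 1414 bp) and Cxcl12 (1140 and 389 bp in Ctrl) were the marked ones among the other 4 genes of that list. The sums over its 11 genes were 3575 and 2360 bp in Ctrl and 1742 and 2556 bp in SR2. Of 10 macrophage and leukocyte genes Lcp1 and Cd14 were marked in all 4, Cd68 was control-only (349 and 391 bp) and Spi1 was absent in SR2 replicate 1 alone, with sums of 3297 and 2808 bp in Ctrl and 2079 and 2533 bp in SR2. The defining genes Ptprc, Csf1r and Adgre1 had no region. Kdr, an endothelial receptor gene, had 897, 559, 559 and 0 bp, and Pecam1, Cdh5 and Tek had none. Of the 8 endothelial genes Flt1 and Ramp2 were marked in all 4, and the sums were 2886 and 2467 bp in Ctrl and 1890 and 1783 bp in SR2. Of 8 T and B cell genes Cd4 was marked (717, 625, 663 and 647 bp), and Cd3e, Cd3d and Ms4a1 had no region. Of 5 neuron genes Map2 was marked in all 4 (1037, 684, 779 and 602 bp) and Tubb3 was control-only (569 and 637 bp), and Rbfox3, Snap25 and Syt1 had no region. Of 8 adipocyte genes Pparg and Lpl were marked in all 4 and Cidea was absent in SR2 replicate 2 alone, with sums of 3371 and 2596 bp in Ctrl and 1492 and 1613 bp in SR2, and Adipoq, Plin1 and Fabp4 had no region. In bulk libraries fewer cells of a type and less of the mark per cell cannot be told apart.

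Luminal genes were mostly marked in every library. Among 15 hormone-sensing genes, 14 had a region and 9 were marked in all 4, with a median log2 ratio of -0.63 in pair 1 and 0.09 in pair 2. Esr1, the oestrogen receptor, had 563, 328, 0 and 414 bp, and Pgr, the progesterone receptor, had 0, 395, 0 and 272 bp. Both lacked a peak in SR2 replicate 1 and had one in SR2 replicate 2. Areg, the growth factor amphiregulin, was the gene narrower at an unadjusted p under 0.05, with 868, 1011, 477 and 494 bp (log2 change -0.58, SE 0.18, limma adjusted p 0.265). Among 17 progenitor and alveolar genes 12 were marked in all 4 (-0.68 in pair 1 and 0.06 in pair 2), and Cebpb was the single one past that level. Elf5, a regulator of alveolar cells, had 1323, 333, 763 and 891 bp, and Kit, the receptor of luminal progenitors, 1254, 459, 652 and 1370 bp. In both genes the lowest value was that of Ctrl replicate 2. All 13 luminal keratin, claudin and related genes were marked in all 4, with Cldn3 (2174, 1991, 2076 and 2431 bp) wider and Ovol1 (2050, 2117, 1476 and 1677 bp) narrower at the unadjusted level. Cldn3 is a tight junction claudin and Ovol1 a transcription factor that holds epithelial identity.

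Basal and adhesion genes with a region were mostly marked in every library. Of 17 basal and myoepithelial genes 11 had a region, and Lgr5, a receptor of stem cells, was control-only with 615 and 268 bp. Over the 9 marked in all 4 the median log2 ratio of breadth was -0.44 in pair 1 and -0.06 in pair 2. Their median change of percentile was -13.8 points in pair 1 and -6.15 in pair 2, against -0.22 and 0.12 over all genes. The list was not tested as a set. All 14 genes of the desmosome and adherens list, which does not hold the control-only Dsc3, were marked in all 4. Its median ratios were -0.36 in pair 1 and 0.003 in pair 2, and its median percentile changed by 4.57 and 0.98 points. Dsc2 had 1000, 940, 766 and 673 bp and Dsg2, also a desmosomal cadherin, 1034, 866, 816 and 1158 bp. Pkp3, a plakophilin of desmosomes, was narrower at the unadjusted level, with 2220, 2199, 1107 and 1279 bp (log2 change -0.64, SE 0.06, limma adjusted p 0.234).

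Of 18 genes of epithelial-mesenchymal transition (EMT) 16 had a region, 9 were marked in all 4, 3 were control-only (against 1.56% of all genes marked in both Ctrl libraries) and 3 were absent in SR2 replicate 1 alone, as were 379 of all 12519 genes with a region. The control-only genes were Cdh2, Fn1 (fibronectin, 1024 and 649 bp) and Tnc (tenascin C, 898 and 535 bp). Twist1, Sparc and Prrx1 lacked a peak in SR2 replicate 1 alone, and had 1151, 447 and 415 bp in SR2 replicate 2. Of 15 tested genes 5 were narrower at the unadjusted level, against 4.72% of all genes. They were the control-only genes, Twist2 (877, 1148, 305 and 590 bp) and Tgfb2 (1837, 1306, 1030 and 989 bp). The median log2 change was -0.38, against 0.02 over all genes, and over the 9 genes marked in all 4 the median ratio was -0.72 in pair 1 and -0.31 in pair 2. The median percentile by -log10 q instead changed by 2.88 points in pair 1 and 3.03 in pair 2. Median Ctrl breadth was 1012.5 bp in this list, against 1246 bp over all genes with a region. The part of breadth or peak strength in these values was not tested. The EMT regulators Snai1, with 358, 351, 417 and 276 bp, and Zeb1, with 1097, 784, 485 and 1104 bp, were marked in all 4, and their groups overlapped. Vim, the mesenchymal filament gene, had 1397, 300, 636 and 732 bp, so both SR2 values lay between the Ctrl values.

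Of 17 stemness and plasticity genes 14 had a region. Sox2, a pluripotency factor, was control-only with 467 and 521 bp, and Sox10, a neural crest factor found in mammary progenitors, was wider at the unadjusted level, with 750, 584, 746 and 995 bp. Sox4, a related factor, had 3342, 2902, 2701 and 2796 bp. Nes was absent in SR2 replicate 1 alone. Of the Notch pathway 14 of 15 genes had a region. The receptors Notch1 (2243, 2410, 2254 and 2328 bp) and Notch2 (1397, 1004, 875 and 1074 bp) overlapped between the groups. Heyl, a Notch target, was control-only with 549 and 636 bp, and the ligand gene Jag2 had 2675, 2317, 1669 and 2057 bp. Of the Wnt pathway 17 of 19 genes were marked in all 4, 0 were narrower and Wnt7b was wider at the unadjusted level (1693, 1659, 1792 and 1850 bp). The log2 change of Wnt7b, 0.26, turned to -1.40 once peaks with a -log10 q under 5 were dropped. The ligand gene Wnt3a had 1535, 1618, 397 and 1109 bp, lowest in SR2 replicate 1, and Wnt4 1590, 1219, 1024 and 1586 bp.

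Sqle, squalene epoxidase of cholesterol synthesis, had the lowest unadjusted p of the listed genes for breadth. Its region (chromosome 15, 59314552 to 59317372) had 2720 and 2469 bp in Ctrl and 1050 and 1189 bp in SR2, so the groups did not overlap and lay more than 1.5-fold apart. The limma log2 change was -0.93 (SE 0.06, adjusted p 0.234). It passed when regions marked in a single library were tested too (adjusted p 0.0460), and was then the single region called. It also passed without SR2 replicate 2 (0.00224), and over its 15 alternatives the limma adjusted p ran up to 0.731. All 19 cholesterol synthesis genes with a region (of 20) were marked in all 4. Of them 2, Sqle included, were narrower at the unadjusted level, against 4.72% of all genes. Hmgcs1, an early synthase of the pathway, had 1513, 1362, 1032 and 1470 bp, which overlap between the groups, and the list's median log2 change was -0.08, with ratios of -0.46 in pair 1 and -0.13 in pair 2.

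Sterol sensing and fatty acid genes with a region were marked in every library. Their median ratios were -0.29 in pair 1 and -0.05 in pair 2 for the sterol list, and -0.39 and -0.10 for the fatty acid list. Of 16 sterol sensing and transport genes 15 were marked in all 4 and 0 passed even the unadjusted level, with Srebf1 at 2411, 2062, 1636 and 1992 bp and Srebf2, the master regulator of cholesterol genes, at 1941, 1684, 1264 and 1560 bp. In both, the SR2 values lay below the Ctrl values. Of 15 fatty acid genes 13 were marked in all 4. Fasn, fatty acid synthase, was narrower at the unadjusted level with 2543, 2375, 1724 and 1930 bp, and Acly, ATP citrate lyase, had 1517, 1548, 1331 and 1423 bp. The SR2 values of Fasn and Acly also lay below their Ctrl values.

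Of 13 hypoxia and glycolysis genes, all marked in every library, 4 were narrower (against 4.72% of all genes) and 1 wider (against 2.45%) at the unadjusted level. Vegfa, the angiogenic growth factor (chromosome 17, 46028714 to 46032831), was among the widest domains, with 3654 and 4118 bp in Ctrl and 2493 and 2689 bp in SR2. The limma log2 change was -0.40 (SE 0.14, adjusted p 0.362). Hk1 (hexokinase), Pgk1 (phosphoglycerate kinase) and Bnip3, a mitophagy receptor, were also below Ctrl in both SR2 libraries, with 1562 and 1625, 1180 and 998, and 1568 and 1376 bp in SR2 against 2448 and 2008, 1654 and 1553, and 2122 and 2106 bp in Ctrl. Pfkfb3, a regulator of glycolysis, had 1815, 1674, 1733 and 1821 bp, which overlap, and Slc2a1, the glucose transporter, 2520, 1286, 1745 and 1710 bp. The list's median log2 change was 0.03, with ratios of -0.20 in pair 1 and -0.09 in pair 2.

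EGF receptor and immediate early genes were all marked in every library. Of 16 EGF receptor and feedback genes Areg was narrower at the unadjusted level, as were 4.72% of all genes. Dusp6 (1941, 1669, 2017 and 1917 bp) and Spry1 (1494, 1246, 1434 and 1609 bp), which damp MAP kinase signalling, were wider, as were 2.45% of all genes. Their groups overlapped before centring. Egfr had 1644, 1744, 1491 and 1604 bp and Erbb2 1836, 1626, 1755 and 1664 bp. Of 13 AP-1 and immediate early genes 0 were narrower or wider at that level, with Fos at 1784, 1762, 1582 and 1708 bp and Fosb at 2973, 2808, 2647 and 2949 bp.

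Genes of cannabinoid signalling, which the series title names through CB2R, showed no call. Of 12 genes 9 had a region, all marked in all 4 libraries, and 0 of 9 were narrower or wider at an unadjusted limma p under 0.05. Cnr1, the receptor CB1R, had 985, 857, 1026 and 858 bp, and Faah, which degrades anandamide, 662, 793, 488 and 514 bp. The SR2 values of Faah lay below its Ctrl values and those of Cnr1 overlapped. Cnr2, which encodes CB2R, and Gpr55 and Trpv1 had no region within 1 kb of a listed start or gene end used here. Of 14 genes of mucin-type O-glycosylation 12 were marked in all 4 and Galnt6 alone was control-only. Its paralogs Galnt1 (1564, 1665, 1391 and 1345 bp) and Galnt2 (1354, 1233, 1035 and 1107 bp) kept their peaks.

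Of 20 genes for enzymes of H3K4 and H3K27 methylation 19 were marked in all 4. Kdm6b, an H3K27 demethylase, was narrower at the unadjusted level, with 2672 and 2894 bp in Ctrl and 1161 and 1828 bp in SR2 (log2 change -0.69, SE 0.18, limma adjusted p 0.236). Rbbp5, a shared subunit of the H3K4 methyltransferases, had 1514, 1417, 1486 and 1514 bp and was wider after centring. Kmt2a had 2613, 2130, 1992 and 2322 bp and Kmt2b 1894, 1752, 1728 and 1815 bp, which overlap. Of 16 interferon and antigen presentation genes 12 were marked in all 4 and 0 passed the unadjusted level. Stat2, a transcription factor of interferon signalling, had 916, 854, 834 and 864 bp, which overlap.

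Ribosomal protein and cell cycle genes had no call. All 20 ribosomal protein genes and 19 of 20 cell cycle genes were marked in all 4 libraries, and 0 of them were narrower or wider at an unadjusted limma p under 0.05. Their median log2 changes were -0.06 and 0.06. The ratios by pair were -0.23 and -0.17 for the ribosomal protein genes and -0.15 and -0.04 for the cell cycle genes. Rpl3 had 1962, 1897, 1706 and 1548 bp and Rpl5 1079, 1078, 1021 and 1067 bp. Ccnd1, cyclin D1, had 2827, 2557, 2072 and 2107 bp, and Ccne1, cyclin E1, 1415, 1395, 1167 and 1262 bp. In all 4 genes the SR2 values lay below the Ctrl values. How many of all 10006 gene-start regions were separated in this way was not counted. The 56.9% that were narrower in both pairs is a looser measure.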

How the data were processed

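Peak lists of 4 H3K4me3 CUT&Tag libraries were used. Per the labels' protocols each came from 500000 cells with 60 min of tagmentation and 150 bp paired-end reads. The labels name different dissociation enzymes in 2 places, so that step is uncertain. Per the submitters' processing notes the build was mm10 and the tools were MACS3, bedtools, deepTools, SAMtools 1.8, Picard, Bowtie2 2.5.4 and cutadapt 5.2, with no roles stated. The authors called peaks per library, per the names in the file lines. The deposited values per peak are a score, a fold enrichment over local background (a ratio) and −log10 p and −log10 q values, used here only within a list. The read depth is unknown. Summit pileup and background were worked out from the fold enrichment and the −log10 p that the authors deposited, and 100% of the pileups were whole numbers within 0.005.

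Peaks outside chromosomes 1 to 19 and X (17 to 24 per library) were left out. Gene starts came from the RefSeq promoter table of GRCm38.p6 for 17273 of 21627 protein-coding genes (79.87%), and both gene ends were used for the others. A gene took the region within 1 kb with most covered bp. Breadth (log2 of covered bp + 200, regions marked in at least 2 libraries) and rank were tested with limma 3.58.1 (trend, R 4.3.3) and Benjamini-Hochberg adjustment at 0.05, and tested on simulated data. Single values had an exact permutation test (two-sided). A chi-square of summit pileups was, divided by its degrees of freedom, 0.869 and 0.979 between replicates and 0.887 to 1.35 between groups. SR2 replicate 2 gave 0.960 against Ctrl replicate 1 and 0.887 against Ctrl replicate 2. No library was thus a copy of another by this measure. It cannot tell separate cultures from technical splits of 1 culture. The labels pair same-numbered libraries by batch, and the correlation of their deviations was -0.066 over 15592 regions.

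Named genes, other than clone-named ones, were the 8 with the largest narrowing and widening in both pairs, the 8 widest control-only and SR2-only genes, the 5 with the largest rank increase and decrease, list genes that were control-only, and the first members of each list with a region. Where 5 or fewer list genes passed the unadjusted level, they are named too, chosen after their values were seen. Some genes that these rules name are not reported here. The members and lists were chosen with earlier results of these data known.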

Additional observations from a re-analysis of the deposited data

How the results depend on the processing

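The ratios of peak number and covered length, and the median log2 ratios of breadth and pileup, kept their direction under every alternative run. Presence did not keep its size. Leaving out a library drops a condition, so presence counts can then only rise, and requiring at least 500 bp can only lower them. The direction of those changes was thus fixed in advance. The 1147 control-only regions became 451 with equal list lengths and 174 when at least 500 bp had to be covered, and ran from 1380 to 4136 with 1 library left out. The 33 SR2-only regions became 7 at a −log10 q of at least 5, 75 with equal list lengths and 0 with at least 500 bp, and ran from 62 to 1990. Control-only gene starts (184) became 242 at −log10 q of at least 5, where 62 of the 184 remained, and 83 with equal list lengths. SR2-only gene starts (2) stayed at 2 and became 15 under the same settings. With 1 library left out, control-only gene starts ran from 248 to 563 and SR2-only gene starts from 5 to 60. Limma called 1 narrower region (Sqle) when regions of 1 library were tested too and 6 regions higher in rank with normal scores, and with 1 library left out 0 to 1253 narrower, 0 to 38 wider and 0 to 4 higher in rank. With the replicate block, the paired fit by batch, limma called 0 regions, with 1612 narrower and 183 wider at an unadjusted p under 0.05 (lowest adjusted p 0.324 for breadth and 0.0608 for rank), and the block changed no other call. Of 901 values of 66 named genes under alternatives, 861 kept their side and direction, 34 passed the threshold (32 of them without SR2 replicate 2) and 6 reversed. Reversed were Wnt7b (-1.40 at −log10 q of at least 5) and, when ranked by covered bp, Usp33 (-11.0), Mprip (-4.13), Zpr1 (17.2), Cc2d1a (5.94) and Cers6 (7.30), and the cause was not tested. Of the 16 named control-only genes, 11 remained at −log10 q of at least 5, 10 with equal list lengths and 11 with at least 500 bp. Of all 184, the counts were 62, 78 and 46. Part of the 16 was chosen for the most covered bp in Ctrl, which favours their remaining with at least 500 bp. The part of this choice at the other settings was not tested, so no difference between the 16 and all 184 is read from these counts. Peaks near the authors' threshold limit presence calls, and with 2 libraries a group the exact permutation test cannot reach p 0.05.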

Other observations

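The widest H3K4me3 domains at gene starts, a class chosen after its values were seen and ranked by mean breadth in Ctrl, kept most of their width in SR2. Brd2, a bromodomain reader of acetylated histones whose region also reaches H2-DMa, had the widest, with 5018 and 4566 bp in Ctrl and 4036 and 3780 bp in SR2. Tob2, an antiproliferative gene, had 4188, 4116, 3602 and 3725 bp, and Dusp7, a MAP kinase phosphatase, 4170, 4046, 3339 and 3832 bp. In these 3 genes both SR2 libraries lay below both Ctrl libraries. The share of all 10006 gene-start regions separated in this way was not counted, and the 56.9% narrower in both pairs is a looser measure. Mxi1, an antagonist of MYC, had 3999, 3861, 3464 and 3958 bp, Efna5, an ephrin ligand, 3734, 3619, 3689 and 3605 bp, Jag1, a Notch ligand, 3591, 3324, 2950 and 3876 bp, and Myc 3464, 3247, 2788 and 3263 bp. The groups of these 4 genes overlapped. Among the 5 widest, Vegfa had the largest difference, and the limma adjusted p of all 20 widest regions was at least 0.362. Over the 100 widest regions the median log2 ratio of covered bp was -0.26 in pair 1 and -0.03 in pair 2, against -0.24 and -0.04 over all 10006. Because they were chosen by Ctrl breadth, part of their lower breadth in SR2 is fixed by the choice. Of the 100 widest in each library, 72 were shared by the Ctrl replicates, 67 by the SR2 replicates, 61 in pair 1 and 76 in pair 2.

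Regions found in SR2 replicate 1 alone had an unusual place in the genome. Of its 1957 such regions, 6.08% lay on chromosome X, against 1.00% and 1.69% for the Ctrl libraries, 2.90% for SR2 replicate 2 and 2.84% of the regions marked in all 4. At gene starts lay 3.01% of them, against 14.0%, 7.95% and 8.80% for the other libraries. Chromosome X was also the single chromosome with more peaks in SR2 than in Ctrl in pair 1, 487 against 447 (ratio 1.09), and it had 426 against 431 in pair 2. The other chromosomes had ratios of 0.75 to 0.87 in pair 1. The cause was not tested.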
